A study of Mus musculus with 48 samples.

Results

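A set of 5 genes placed at the mesenchymal end of Mesp1-induced mouse mesoderm cells was examined: Pmp22, Capn6, Klhl6, Gadd45g and Igfbp4, which are 5 of the 23284 gene symbols in the deposited table. They were selected on the FPKM values of these same cells, as genes high in cells opposite those rich in Krt18 and T, so their levels and relations are descriptions and carry no test. The cells came from embryonic stem cells of strain 129P2/OlaHsd in which Mesp1, a basic helix-loop-helix factor of nascent cardiovascular mesoderm, could be switched on with doxycycline. The stem cells were grown as embryoid bodies, and doxycycline at 500 ng/ml was present between days 2.25 and 3.25. On day 4, cells that excluded propidium iodide were sorted and 48 were captured singly on a Fluidigm C1 device. All 48 cells received the inducer and form 1 group, with no uninduced cells and no separate cultures named, so the group stood as 1 sample and no p-value was made from cells. The cells and their number of detected genes (4788 to 7010, median 6212) were taken as deposited, with no caller run for doublets because the table holds no counts.

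Nascent mesoderm forms when epithelial cells of the primitive streak lose keratins and E-cadherin and become migratory mesenchyme with vimentin and a fibronectin matrix. Keratin 18 (Krt18) is an intermediate filament protein of simple epithelia, and T (brachyury) is the T-box factor of the streak and early mesoderm. The 5 genes belong to unrelated protein families. Pmp22 encodes a tetraspan membrane glycoprotein best known from the myelin of peripheral nerve. Capn6 encodes a calpain that lacks the catalytic cysteine of that protease family and binds microtubules. Klhl6 encodes a BTB-kelch protein that acts as a substrate adaptor of cullin 3 ubiquitin ligases and is best known from B lymphocytes. Gadd45g encodes a small nuclear protein of growth arrest and stress responses, and Igfbp4 a secreted protein that binds insulin-like growth factors and limits their access to receptors.

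In the GENCODE M21 annotation of GRCm38, Pmp22 lies on chromosome 11 from 63128982 to 63159547 and Igfbp4 on the same chromosome from 99041244 to 99054392, both on the plus strand. Gadd45g lies on chromosome 13 from 51846678 to 51848468 on the plus strand. Klhl6 lies on chromosome 16 from 19946496 to 19983037 and Capn6 on chromosome X from 143802231 to 143827414, both on the minus strand. The annotated gene that overlaps a member is Gm47298, a microRNA within Capn6 on the same strand, which is not a row of the table.

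Promoter windows from RefSeq (GRCm38.p6), each from 250 bases before to 50 bases after a gene's start, are shown for the 4 members with a single window, since these genes were grouped for rising together. Capitals mark every E-box of the form CANNTG, the hexamer read by basic helix-loop-helix factors as a class. The windows are chr13:51846425-51846724 on the plus strand for Gadd45g, chr11:99040994-99041293 on the plus strand for Igfbp4, chr16:19983000-19983299 on the minus strand for Klhl6, and chrX:143827363-143827662 on the minus strand for Capn6.
Gadd45g: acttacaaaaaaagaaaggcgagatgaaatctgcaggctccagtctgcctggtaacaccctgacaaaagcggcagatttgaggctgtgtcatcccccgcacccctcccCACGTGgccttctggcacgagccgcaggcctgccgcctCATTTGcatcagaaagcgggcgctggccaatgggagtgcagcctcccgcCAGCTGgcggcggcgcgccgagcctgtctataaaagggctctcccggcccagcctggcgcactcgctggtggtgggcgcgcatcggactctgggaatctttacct
Igfbp4: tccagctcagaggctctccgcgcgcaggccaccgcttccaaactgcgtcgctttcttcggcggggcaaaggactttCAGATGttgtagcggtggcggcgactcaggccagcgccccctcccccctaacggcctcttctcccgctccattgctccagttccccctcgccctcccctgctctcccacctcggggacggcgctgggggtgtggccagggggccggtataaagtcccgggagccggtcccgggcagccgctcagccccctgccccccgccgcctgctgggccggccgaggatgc
Klhl6: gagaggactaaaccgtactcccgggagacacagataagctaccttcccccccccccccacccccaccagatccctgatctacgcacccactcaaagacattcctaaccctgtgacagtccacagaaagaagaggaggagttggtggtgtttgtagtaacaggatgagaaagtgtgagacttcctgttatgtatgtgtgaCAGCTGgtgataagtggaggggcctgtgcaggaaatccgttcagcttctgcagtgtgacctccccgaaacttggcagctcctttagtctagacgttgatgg
Capn6: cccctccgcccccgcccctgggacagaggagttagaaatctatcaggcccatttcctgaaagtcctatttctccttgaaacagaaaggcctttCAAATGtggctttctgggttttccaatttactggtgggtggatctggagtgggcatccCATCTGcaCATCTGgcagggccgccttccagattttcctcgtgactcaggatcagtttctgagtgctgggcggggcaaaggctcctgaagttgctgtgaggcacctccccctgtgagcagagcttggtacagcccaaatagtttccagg
Gadd45g and Capn6 held 3 E-boxes each in these windows and Igfbp4 and Klhl6 held 1 each. Pmp22 has 4 windows in the table, of which 1 held an E-box. Across the 32851 RefSeq promoter windows of 300 bases, 72.3% held at least 1 E-box, so its presence does not set the members apart. Searched on both strands, CAGGTG, a subset of the E-boxes, was in none of the members' windows and in 20.2% of all windows. The T-box sequence AGGTGTGA was in none of them, against 1.28% of all windows, and the GATA sequence AGATAA was in the Klhl6 window, against 11.2% of all windows.

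Igfbp4 was the most widely detected member, followed by Pmp22, while Capn6, Klhl6 and Gadd45g were each missing from many cells. Levels are in FPKM (fragment counts divided by a transcript's length and a cell's mapped total), which divides by length and so can be set side by side between genes, and the mark for detection was 1 FPKM. Of all symbols, 35.8% were detected in at least 12 of the 48 cells, and all 5 members were. Igfbp4 was detected in 43 of 48 cells (89.6%, exact Clopper-Pearson 95% interval 77.3% to 96.5%, counting error only), and its lowest level was 0, its median 31.1 FPKM and its highest 185.6 FPKM. Pmp22 was detected in 35 cells (72.9%, interval 58.2% to 84.7%), with a lowest level of 0, a median of 34.5 FPKM and a highest level of 487.2 FPKM. Both genes therefore had similar medians, and Pmp22 had the higher value in 26 cells and the lower in 22.

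Capn6 was detected in 28 cells (58.3%, interval 43.2% to 72.4%), with a median of 2.13 FPKM between 0 and 188.4 FPKM. Klhl6 was detected in 24 cells (50%, interval 35.2% to 64.8%), with a median of 0.605 FPKM between 0 and 231.5 FPKM. These neighbours in the order of levels did not separate, since Capn6 was higher in 17 cells, lower in 16 and equal in 15. Gadd45g was detected in 17 cells (35.4%, interval 22.2% to 50.5%) and was listed at 0 in 29, with a median of 0, an upper quartile of 16.1 FPKM and a maximum of 329.6 FPKM. The coefficient of variation over cells rose as detection fell, at 0.998 for Igfbp4, 1.49 for Pmp22, 1.68 for Capn6, 1.74 for Klhl6 and 2.25 for Gadd45g. Of the members, Capn6 had the most cells between 1 and 10 FPKM, and its detection was 37.5% of cells at a threshold of 10 FPKM. Just inside the detection threshold lay Capn6 at 1.05 FPKM and Klhl6 at 1.09 FPKM, both in cell C51, and just outside lay Gadd45g at 0.822 FPKM in cell C18 and 0.714 FPKM in cell C15. A listed 0 may be a transcript lost in a single cell, and depth is unknown because the table holds no counts.

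**Figure D1:**
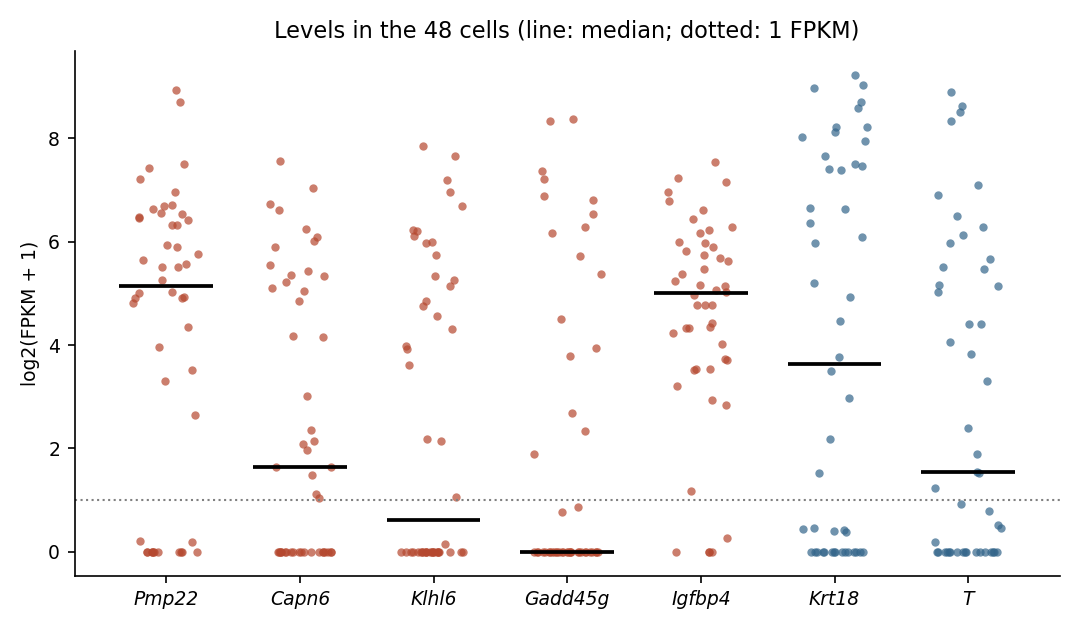
Level of each member (left, red) and of Krt18 and T (right, blue) in the 48 cells as log2(FPKM + 1); each point is a cell, the black line the median and the dotted line 1 FPKM. Pmp22 and Igfbp4 have medians of 34.5 and 31.1 FPKM, while most Gadd45g points lie at 0.

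Many cells held several members. The count expected from the members' single detection rates was not computed, so the counts below are no measure of joint detection. At least 3 of the 5 were detected in 33 cells (68.75%, interval 53.75% to 81.3%), all 5 in 4 cells and none in 2. The commonest combination, in 13 cells, was Pmp22, Capn6, Klhl6 and Igfbp4 without Gadd45g. Igfbp4 alone was next, in 6 cells. Of the 24 cells with Klhl6, 23 also had Pmp22, which was in 72.9% of all cells, and 23 had Igfbp4, which was in 89.6%. Of the 17 cells with Gadd45g, 16 had Igfbp4 and 15 had Pmp22, but 9 had Capn6, which was in 58.3% of all cells.

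Members fell into a set of 3 and a pair by how they varied over all 48 cells, though not in every subset of cells. Over the 48 cells, Spearman's rho between Pmp22 and Klhl6 was 0.56 (Pearson's r = 0.55 on log2(FPKM + 1), r = 0.52 without the 2 cells farthest from the median of Pmp22). Those 2 cells were among the 11 listed at 0 for Pmp22, which tie for that distance, so its highest cells, C36 and C59, stayed in. Without C36 and C59, rho was 0.51 for Pmp22 with Klhl6 and 0.48 for Pmp22 with Capn6. Pmp22 and Capn6 had rho = 0.55 (r = 0.52, and 0.51 without the 2 cells), and Capn6 and Klhl6 had rho = 0.48 (r = 0.47, and 0.40 without the 2 cells farthest in Capn6). Gadd45g and Igfbp4 had the highest value of any pair, rho = 0.60 (r = 0.45, and 0.40 without the 2 cells farthest in Gadd45g). Links across the sets were weaker: Capn6 with Gadd45g had rho = 0.03 (r = 0.04) and Capn6 with Igfbp4 0.19 (r = 0.22). Pmp22 had 0.25 with Gadd45g (r = 0.28) and 0.31 with Igfbp4 (r = 0.35), and Klhl6 reached 0.39 with Igfbp4 (r = 0.32) and 0.32 with Gadd45g (r = 0.25).

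The median rho of the 10 pairs was 0.36, beside 0.02 over all pairs of the 8337 genes detected in at least 12 cells, short RNAs left out. A rho of 0.3 or more was reached by 7 of the 10 pairs and by 2.89% of all gene pairs, a gap that the choice of the members fixes in part. Without cells C36 and C59, the highest in the members, the median fell to 0.27. The points are cells of 1 group with no separate preparations named in the labels, and they differ in the number of detected genes. No member followed that number of genes: rho lay between -0.14 for Capn6 and 0.14 for Klhl6, and r between -0.07 for Capn6 and 0.19 for Klhl6 and Igfbp4. Within the 25 cells titled up to 48, rho was 0.67 for Pmp22 with Klhl6, 0.50 for Pmp22 with Capn6, 0.41 for Capn6 with Klhl6 and 0.69 for Gadd45g with Igfbp4. The 23 cells with higher numbers gave 0.48, 0.52, 0.73 and 0.54 for those pairs in the same order. Klhl6 with Igfbp4, in contrast, had 0.64 in the cells up to 48 and 0.15 in the others, and Pmp22 with Igfbp4 0.47 and 0.17. In the cells up to 48 both values were above that of Capn6 with Klhl6, so the set of 3 and the pair did not separate there. These ranges also differed in detected genes, 5890 to 7010 up to 48 and 4788 to 6744 above. The title number and the detected genes cannot be told apart in this split.

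**Figure D2:**
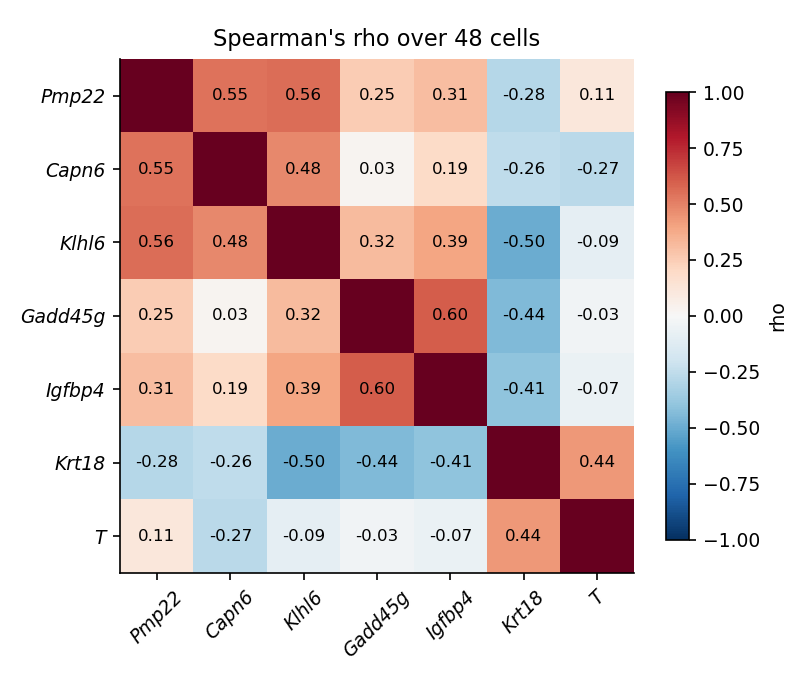
Spearman's rho over the 48 cells between each pair of members, and with Krt18 and T; red is positive, blue negative. Pmp22, Capn6 and Klhl6 share values from 0.48 to 0.56 and Gadd45g and Igfbp4 reach 0.60. Krt18 is negative with every member. T lies near 0 with the members except for Capn6, and at 0.44 with Krt18.

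Krt18 ran against the members over all 48 cells, and past -0.3 for Klhl6, Gadd45g and Igfbp4. Krt18 itself was detected in 28 cells. Its median was 11.5 FPKM and its highest level 600.6 FPKM. The rho of Krt18 was -0.50 with Klhl6 (r = -0.45, and -0.48 without the 2 cells farthest from the median of Krt18), -0.44 with Gadd45g (r = -0.34, and -0.32) and -0.41 with Igfbp4 (r = -0.35, and -0.37). Pmp22 and Capn6 had -0.28 (r = -0.24) and -0.26 (r = -0.19). A rho of -0.3 or lower was thus reached by 3 of 5 members and by 3.06% of all genes (3.71% reached 0.3 or higher, and no member did), and the rule named Krt18 as the far end, so nothing is read from the count. Among 8336 genes, Klhl6 had the 8th lowest rho with Krt18, Gadd45g the 16th and Igfbp4 the 37th, against the 319th for Pmp22 and the 449th for Capn6. The choice of the members fixes these ranks in part, so they too are only a description.

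Detection, read from the same values and so no further support, showed the contrast most for Gadd45g and Klhl6. Gadd45g was detected in 4 of the 28 cells with Krt18 and in 13 of the 20 cells without it, and Klhl6 in 10 and 14 cells. Pmp22 was detected in 19 of the cells with Krt18 and 16 of those without, and Capn6 in 15 and 13. Igfbp4 was detected in 24 of the cells with Krt18 and 19 of those without, so that its relation lay in its level and less in its presence. Cell C65, the highest in Krt18, still held 86.9 FPKM of Pmp22, 39.4 FPKM of Capn6 and 26.03 FPKM of Klhl6. The relation to Krt18 had the same sign in both ranges of title numbers for all 5 members, but its size differed. Pmp22 had -0.46 up to 48, past -0.3, and -0.18 above, and Capn6 had -0.28 and -0.22. The values were -0.60 up to 48 and -0.34 above for Klhl6, -0.33 and -0.56 for Gadd45g, and -0.49 and -0.37 for Igfbp4.

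**Figure D3:**
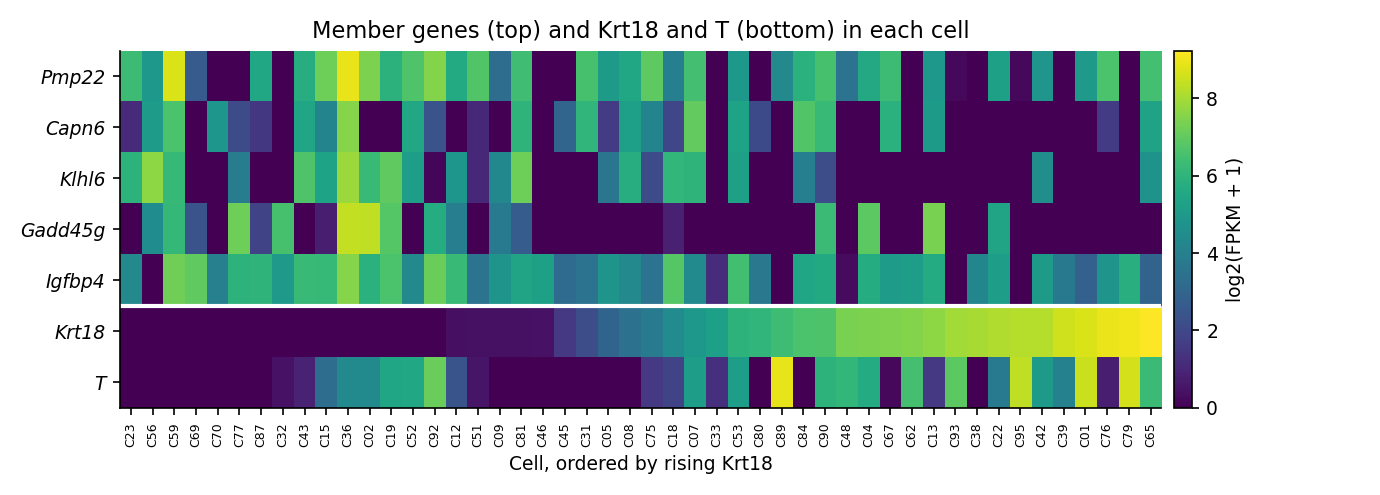
Heat map of log2(FPKM + 1) with 1 column per cell, ordered from left to right by rising Krt18, for the 5 members (above the white line) and for Krt18 and T. Gadd45g is dark in all but 4 of the 28 cells where Krt18 is detected, while Pmp22 and Igfbp4 remain bright in many of them.

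T did not stand opposite the members in these cells. T was found in 26 cells, its median being 1.90 FPKM and its highest level 473.1 FPKM, and it ran with Krt18 over all 48 cells (rho = 0.44, r = 0.48). That rho was 0.28 in the cells titled up to 48 and 0.58 in those above. The rho of T with the members was 0.11 for Pmp22 (r = 0.02), -0.03 for Gadd45g (r = 0.01), -0.07 for Igfbp4 (r = -0.22), -0.09 for Klhl6 (r = -0.12) and -0.27 for Capn6 (r = -0.24). None of the 5 reached -0.3, which 3.62% of all genes did, nor 0.3, which 2.42% did. Detection was also spread over both sides: of the 26 cells with T, 20 had Pmp22, 22 Igfbp4, 13 Klhl6, 11 Capn6 and 9 Gadd45g, while of the 22 cells without T, 15 had Pmp22, 21 Igfbp4, 11 Klhl6, 17 Capn6 and 8 Gadd45g.

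The cells at the top of the T range nevertheless held little of 3 members. Cells C89, C79, C01 and C95, with 473.1, 396, 362.3 and 322.5 FPKM of T, were each listed at 0 for Capn6, Klhl6 and Gadd45g. In that order they also held 81.2, 520.2, 416.5 and 295.9 FPKM of Krt18, so T and Krt18 cannot be told apart in these cells. C89 and C95 had 4887 and 4960 detected genes, beside a median of 6212 over all cells. Igfbp4 stood at 55.9 FPKM in C79, 6.19 FPKM in C01 and 0 in the other two, and Pmp22 at 19.3 FPKM in C89, 31.04 FPKM in C01, 0.150 FPKM in C95 and 0 in C79. At 136.8 FPKM of T and with Krt18 listed at 0, cell C92 had 181.5 FPKM of Pmp22 and 140.9 FPKM of Igfbp4, with Klhl6 at 0.116 FPKM. The sign also differed between the ranges of title numbers. Gadd45g had rho = 0.32 with T in cells up to 48 and -0.37 in those above, and Igfbp4 0.18 and -0.29. Capn6 was negative in both (-0.25 and -0.43). Every cell with fewer than 5890 detected genes lies above 48, so title number and detected genes cannot be told apart here.

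**Figure D4:**
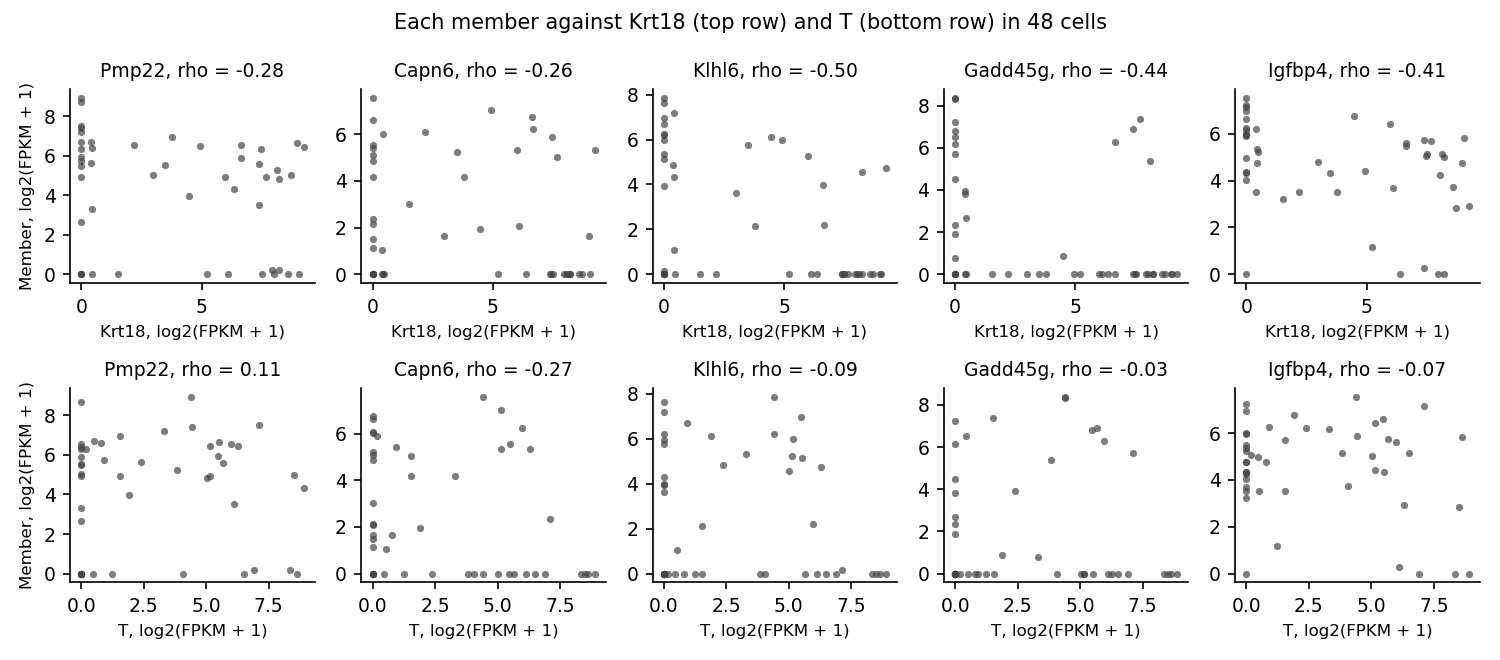
Each member (vertical axis) against Krt18 (top row) and T (bottom row) in 48 cells, all as log2(FPKM + 1), with Spearman's rho above each panel. Points with both genes high are scarce for Gadd45g and Krt18 (rho = -0.44) and common for Pmp22 and T (rho = 0.11).

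The mesenchymal label was set beside marker lists through the mean z-score of the 5 genes in each cell (the average of their standardised log2 levels). Of 10 mesenchymal genes detected in at least 12 cells, 6 had a rho of 0.3 or more with this score, and none had -0.3 or lower; over all genes 3.5% and 4.62% did. They were fibronectin (Fn1, rho = 0.61, r = 0.56), Cdh11 (0.41, r = 0.34), Vim (0.40, r = 0.40) and the transcription factors Zeb1 (0.37, r = 0.43) and Twist1 (0.35, r = 0.37), with Sparc, a matrix glycoprotein, at 0.32 (r = 0.41). The other 4, N-cadherin (Cdh2, -0.09), Tcf4 (-0.08), Snai1 (0.10) and Zeb2 (0.11), did not follow the score. Of the fibrillar collagen genes of mature mesenchyme, Col1a2 was detected in 10 cells (up to 14.5 FPKM), Col1a1 in 2 and Col3a1 in 1. The median rho of the 10 genes was 0.34, beside -0.01 over all genes. Since the members were selected on these same cells, the values describe the score and are no independent test of the label. Over all the marker lists 14 of 56 genes were higher and 12 lower with the score. After each cell was rescaled to the same total over all rows this became 16 and 8, while 13.8% and 1.06% of all genes passed the limits.

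Single members shared this unequally. With Klhl6, 6 of the 10 mesenchymal genes reached a rho of 0.3 (3.24% of all genes), with Igfbp4 4 (3.06%), with Pmp22 2 (2.58%), with Capn6 2 (2.72%) and with Gadd45g none (1.8%). N-cadherin stood at -0.32 with Gadd45g, past the lower limit that 4.16% of all genes passed. No mesenchymal gene passed the lower limit with Pmp22 (3.74% of all genes), Capn6 (3.48%), Klhl6 (2.28%) or Igfbp4 (3.73%). Fn1 was shared by Pmp22 (0.45), Capn6 (0.37), Klhl6 (0.51) and Igfbp4 (0.56).

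Epithelial genes ran the other way. All 5 epithelial genes in at least 12 cells had a rho of -0.3 or lower with the score: E-cadherin (Cdh1, -0.53, r = -0.53), Cldn6 (-0.52, r = -0.57), Krt18 (-0.47, r = -0.46), Epcam (-0.46, r = -0.44) and Krt8 (-0.31, r = -0.30), of which Krt18 was named by the rule. Cdh1 was below -0.3 for each member, from -0.34 with Pmp22 to -0.46 with Capn6 and Igfbp4. In the pluripotency list 5 of 9 genes passed -0.3 and none passed 0.3. Nanog, a factor of pluripotent cells that was detected in 46 cells, had -0.59 (r = -0.57) and Pou5f1 -0.51 (r = -0.49); Klf4 (-0.05) and Zfp42 (-0.23) lay nearest 0.

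Mesoderm genes differed in how they related to the score, for which 3.5% of all genes passed 0.3 and 4.62% passed -0.3. Of the 9 cardiac and lateral plate genes, 4 passed 0.3: the ligand Bmp4 (0.58, r = 0.60), the basic helix-loop-helix factors Hand2 (0.50, r = 0.41) and Hand1 (0.49, r = 0.49), and Fgf10 (0.39, r = 0.36), while Mef2c (0.02) and the GATA factors Gata6 and Gata4 (0.10 each) did not. With single members, 4 of the 9 reached 0.3 for Pmp22 (2.58% of all genes), 5 for Capn6 (2.72%) and 4 for Klhl6 (3.24%). For Igfbp4 2 did (3.06%) and for Gadd45g none (1.8%). Endothelial genes were represented by 3 in at least 12 cells, with the receptor Kdr at 0.56 (r = 0.48), the ETS factor Etv2 at 0.53 (r = 0.49) and Egfl7 at 0.12. By member, Etv2 ran from 0.19 with Capn6 to 0.52 with Pmp22, and Kdr from 0.21 with Gadd45g to 0.58 with Pmp22. Gata2, the single blood gene in at least 12 cells, had 0.37 (r = 0.39). None of the 8 paraxial genes passed either limit, with Pdgfra at 0.28 (r = 0.24), Aldh1a2 at 0.22, Cyp26a1 at 0.04 and Dll3 at -0.19. That count lies near the share of all genes, so nothing is read from it. Pdgfra is also 1 of the 9 cardiac and lateral plate genes. Among 12 streak genes Evx1 passed 0.3 (0.32, r = 0.22), and Fgf5 (-0.56, r = -0.51) and the secreted antagonist Cer1 (-0.40, r = -0.49) passed -0.3. Mesp1, the induced gene, had 0.25 (r = 0.28) with the score, and 0.33 with Klhl6 against 0.03 with Pmp22.

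Markers of the cell types in which 2 of the members are best known were at or near 0 in most cells. Of 8 neural crest and Schwann cell genes, none was detected in 12 cells and Sox10, a transcription factor of both, stayed below 1 FPKM; the list summed to between 0 and 40.9 FPKM per cell, with a median of 0.424 FPKM. Of the blood list, the leukocyte gene Ptprc and the B cell gene Cd79b were listed at 0 in every cell, and Cd79a was detected in 1 cell at 1.46 FPKM. Cdh5 of formed endothelium was also listed at 0 in all 48 cells.

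**Figure D5:**
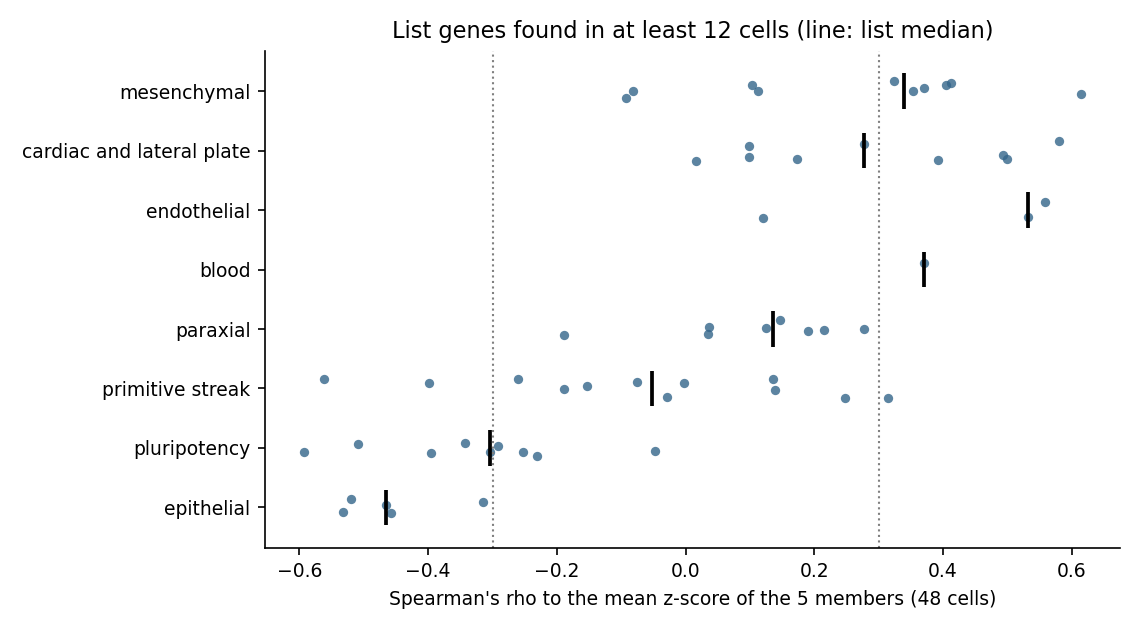
Spearman's rho over 48 cells between genes of 8 lists and the mean z-score of the 5 members; each point is a gene detected in at least 12 cells, the black line is the list's median and dotted lines mark -0.3 and 0.3. All 5 epithelial genes lie below -0.3, 6 of 10 mesenchymal genes lie above 0.3, and no paraxial gene passes either line. Of all genes, 3.5% reach 0.3 and 4.62% reach -0.3.

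The genes most like each member were then named, as the 3 with the highest rho over the 48 cells among 8336 others. For Pmp22 they were Bmp4 (rho = 0.72, r = 0.70, and r = 0.68 without the 2 cells farthest in Pmp22), the RNA-binding protein gene Rbms3 (0.71, r = 0.57, and 0.55) and Unc5c, a netrin receptor (0.61, r = 0.44, and 0.42). The 2 cells left out for Pmp22 were again listed at 0 for it, so its highest cells stayed in. For Capn6 they were Bmp4 (0.64, r = 0.68, and 0.66), Rgs5, a regulator of G protein signalling in mural cells (0.62, r = 0.60, and 0.54), and the imprinted gene Peg10 (0.61, r = 0.60, and 0.57). For Klhl6 they were Frmd4b (0.58, r = 0.52, and 0.60), Unc5c (0.57, r = 0.33, and 0.28) and Rgs5 (0.57, r = 0.55, and 0.51). Each pair of these 3 members thus shared 1 of these genes: Bmp4 stood in the lists of Pmp22 and Capn6, Unc5c in those of Pmp22 and Klhl6, and Rgs5 in those of Capn6 and Klhl6. Bmp4 reached 0.42 with Klhl6 but 0.08 with Gadd45g and 0.17 with Igfbp4. Unc5c was detected in 12 cells, the fewest allowed.

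Gadd45g and Igfbp4 had other neighbours. Beside Igfbp4 itself, Gadd45g was nearest Ifngr2, a chain of the interferon gamma receptor (0.52, r = 0.61, and 0.49 without the 2 cells farthest in Gadd45g), and Rrbp1, a protein of the rough endoplasmic reticulum (0.52, r = 0.56, and 0.56). Igfbp4 was nearest Gadd45g, Serpinh1, a collagen chaperone (0.58, r = 0.55, and 0.46), and Fn1 (0.56, r = 0.59, and 0.61). The 2 cells left out for Igfbp4 were listed at 0 for it, so its highest cells stayed in. The genes with the highest rho to the mean z-score were Unc5c (0.65, r = 0.43), Rgs5 (0.64, r = 0.61), Fn1 (0.61) and the hyaluronan synthase gene Has2 (0.59, r = 0.62). At the opposite end, the lowest rho belonged to Nanog for Pmp22 (-0.61, r = -0.62), Pou5f1 for Capn6 (-0.63, r = -0.55), Snrpn for Klhl6 (-0.55, r = -0.44), the adducin gene Add3 for Gadd45g (-0.57, r = -0.57) and the dyskerin gene Dkc1 for Igfbp4 (-0.58, r = -0.47).

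Relatives and partners of the members were read from short lists, in which counts near 0 lie close to the share of all genes past the limits (1.8% to 4.16% for a member and direction). Of the calpain list, 10 of 11 genes were in the table and 5 were detected in at least 12 cells: the small subunit Capns1 in 44 cells (median 74.5 FPKM), Capn2 in 30 (5.65 FPKM), Capn6 in 28, and Capn7 and the calpain inhibitor Cast in 19 each. None of the other 4 passed 0.3 in either direction with any member, and Capn6 with Capns1 had rho = -0.06. In the family of Pmp22, Emp3 was detected in 26 cells (median 1.89 FPKM, maximum 96.4 FPKM) and had 0.35 with Pmp22, 0.45 with Capn6 and 0.35 with Klhl6, against -0.11 with Gadd45g and 0.05 with Igfbp4. Emp2 was detected in 9 cells and Emp1 in 1.

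Igfbp4 was the most often detected binding protein gene of the insulin-like growth factor list. Igfbp2 was detected in 21 cells, Igfbp3 in 6, Igfbp5 in 4, Igfbp6 in 2 and Igfbp1 and Igfbp7 in none. The receptor genes Igf2r and Igf1r were detected in 47 and 40 cells (medians 5.21 and 4.84 FPKM) and the imprinted ligand gene Igf2 in 39 (median 16.4 FPKM), while Igf1 stayed below 1 FPKM in every cell. Igf2 had rho = 0.27 with Igfbp4 but 0.59 with Capn6 and 0.43 with Pmp22. Pappa, the protease that cleaves Igfbp4, was detected in 13 cells and had 0.35 with Igfbp4, and Igfbp2 had -0.34 with Gadd45g.

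Within its family Gadd45g, in 17 cells, stood between Gadd45a, which was detected in 32 cells (median 2.44 FPKM, rho = -0.25 with Gadd45g), and Gadd45b, detected in 5. Of its known partners, Pcna was detected in 48 cells, the DNA glycosylase gene Tdg in 46, Cdk1 in 45 and the kinase gene Map3k4 in 30. Cdk1 had 0.43 with Gadd45g and 0.37 with Igfbp4, Map3k4 had 0.20 and 0.49, and Pcna had 0.05 and -0.03. Ccnb1 of the same list, detected in 44 cells, had -0.11 with Gadd45g and -0.06 with Igfbp4. Trp53 was detected in 48 cells (median 391 FPKM), with -0.14 for Gadd45g. In the list of cullin 3 ligase genes, Klhl9 and Rbx1 were detected in 48 cells each, Cul3 in 46 (median 19.5 FPKM) and Klhl7 in 45, and 11 of the 18 genes, Klhl6 included, were detected in at least 12 cells. None of the other 10 passed 0.3 in either direction with any member, and Klhl6 with Cul3 had rho = 0.13.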

How the data were processed

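RNA of 48 single cells of 1 group was measured. The deposited table gives 1 column per cell, matched to the cells by title. The deposited values are read as FPKM made by the authors, although no unit stands in the table. Per the submitters' processing notes, the tools were CASAVA 1.8.2, TopHat 0.7 and Cufflinks 2.2.1.0, on mm10, and the role of each is not stated. For annotation, filters and scaling the sources used here give nothing. Depth per cell is unknown, so levels carry no interval. FPKM per cell summed to 480821 to 12864440 over all rows, and to 412435 to 701424 without 773 short RNA symbols. Rows sharing a symbol were summed (23746 rows, 23284 symbols).

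Analyses used Python 3.11.15, numpy 2.4.6, pandas 2.3.3 and scipy 1.17.1. Relations are Spearman's rho and Pearson's r on log2(FPKM + 1), over 8337 genes detected at 1 FPKM in at least 12 cells, without short RNAs. A rho of 0.3 was used as a mark for description, not as a test. The correlation procedure was tested on simulated data. Cells were also split at title number 48. What the number stands for is not stated in the labels. Every cell with fewer than 5890 detected genes has a number above 48, so the split also parts cells by detected genes. The members, gene lists and rules were chosen with earlier results of these data known. Named were the 5 members, Krt18, T, Mesp1, Kdr, Pdgfra and Etv2; the 3 highest and the lowest gene by rho per member; the 4 highest for the mean z-score; the 4 most often detected genes per family list; and the 2 highest and 2 lowest per marker list. Other list genes, and the cells named singly, were chosen after their values were seen. Alternatives were other detection thresholds, scalings, cells, covariates, pseudocounts and gene filters.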

Additional observations from a re-analysis of the deposited data

How the results depend on the processing

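The 4 strongest pairs stayed at 0.3 or above under all 10 alternatives, with rho or r from 0.48 to 0.57 for Pmp22 with Capn6, 0.48 to 0.67 for Pmp22 with Klhl6, 0.41 to 0.73 for Capn6 with Klhl6 and 0.39 to 0.69 for Gadd45g with Igfbp4. Pmp22 with Igfbp4 and Klhl6 with Gadd45g fell below 0.3 in 5 of 10 each. The median of the 10 pairs fell to 0.29 with Pearson's r and a pseudocount of 0.1 FPKM, and to 0.27 without cells C36 and C59, an alternative chosen after seeing the data; the cause was not tested. The median rho with Krt18 ran from -0.46 to -0.32 and the median with T from -0.29 to 0.18. Of the 56 marker list genes, 14 were higher and 12 lower with the score, against 16 and 8 after rescaling each cell over all rows, where 13.8% and 1.06% of all genes passed. Family genes in at least 12 cells numbered 31, and 16 at a detection threshold of 10 FPKM, which admits fewer genes by construction. Capn6, detected in 58.3% of all cells, was detected in 44% of those up to title number 48, 73.9% of those above, and 37.5% of all at 10 FPKM. The range above 48 holds every cell with fewer than 5890 detected genes. No paired analysis was possible because all cells form 1 group. Depth, which is unknown, limits every listed 0.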

Other observations

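Cell C36 held the highest value of all 5 members, with 487.2 FPKM of Pmp22, 188.4 FPKM of Capn6, 231.5 FPKM of Klhl6, 329.6 FPKM of Gadd45g and 185.6 FPKM of Igfbp4. Krt18 was listed at 0 there and T at 20.1 FPKM. The same cell held the highest value of 91 of the 8332 other genes (1.09%, where cells ranged from 53 to 563 with a median of 130), had 6530 detected genes (the 13th most), and its summed FPKM without short RNAs was the 21st highest. Cells C93 and C95, the lowest in the mean z-score, held 244.7 and 295.9 FPKM of Krt18 and 118.6 and 322.5 FPKM of T, and had 4997 and 4960 detected genes, beside a median of 6212 over all cells. They also held the highest value of 563 and 433 other genes, the 1st and 2nd most of all cells. Among other cells with few detected genes, C89, with 4887, had a low score (-0.954) and C90, with 4878, a high one (0.816). C90 also had the highest summed FPKM over all rows (12864440). Cells C33 and C48, with 6433 and 6353 detected genes, had low scores (-1.14 and -0.99). Whether the number of detected genes bears on the score was not tested. Over all 48 cells the score had rho = 0.04 with the number of detected genes (r = 0.10).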
